A study of Homo sapiens with 5 samples.

Results

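The nuclear pore and nuclear transport genes are the nucleoporin genes with a numbered NUP symbol together with TPR, POM121, NDC1 and AAAS, the importin, transportin and exportin genes (KPNA, KPNB1, IPO, TNPO and XPO), and RANGAP1 and RANBP1. They were chosen by symbol: 56 of the 57221 rows of the count table matched, and the 48 that reached 10 counts in at least 2 of the 5 libraries are described here. All 48 were also tested. RNA sequencing gave their expression in NK92MI, a human line of natural killer (NK) cells carrying an introduced interleukin 2 gene, which frees it from added interleukin 2. The treated group (UNC1999, 3 libraries) was exposed for 48 h to 10 µM UNC1999, an inhibitor of the histone H3 lysine 27 methyltransferases EZH2 and EZH1, and the control group (DMSO, 2 libraries) to the solvent DMSO.

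Nuclear pore complexes are large channels through the nuclear envelope, built from many copies of the nucleoporins. Y-complex and inner-ring nucleoporins form the scaffold, membrane nucleoporins anchor it, nucleoporins with phenylalanine-glycine repeats fill the channel, and filaments reach into the cytoplasm and, as the nuclear basket, into the nucleus. Importins carry proteins in and exportins carry proteins and RNA out, with RAN-GTP setting the direction: it releases import cargo and is needed to bind export cargo. In lymphocytes this traffic moves the transcription factors of activation, such as NFAT and NF-kappaB, into the nucleus.

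Libraries held 8442908 to 8748106 counts assigned to genes, and CPM below is the count relative to the TMM-scaled library size, as given by the edgeR function cpm. All 10 NK cell markers on the list were above 10 CPM on average, and their sum was 6200 to 7030 CPM in UNC1999 and 6790 to 6940 CPM in DMSO. Of them CD7 was higher (0.84, edgeR adjusted p = 7.38e-06, 0.68 with offsets for GC content and length, described below) and EOMES lower (-0.74, edgeR adjusted p = 1.86e-06, -0.41 with offsets). The other 8, NCAM1, NKG7, PRF1 and GZMB among them, were not called without offsets, and with them PRF1 was higher and KLRD1 and KLRC1 lower. Of the markers of other cells, CD3E was at 566 to 650 CPM in UNC1999 and 647 to 677 CPM in DMSO, while CD3D, CD3G, CD4, CD8B, MS4A1, LYZ and COL1A2 were listed at 0 in every library. The summed myeloid markers, mostly ITGAM, were at 33.6 to 42.0 CPM in UNC1999 and 41.0 to 45.9 CPM in DMSO, and the summed fibroblast markers stayed below 1 CPM in each library. The part of these markers in the results was not tested. The 37 mitochondrial rows, genes that every cell uses, were also listed at 0 throughout, so they say nothing of RNA quality, and a 0 in this table may be no measurement. The gene for the drug target, EZH2, had a log2 fold change of 0.20, which was not called (edgeR adjusted p = 0.178). With offsets EZH2 was called higher (0.32, edgeR adjusted p = 0.000772). Whether replicates were separate cultures is not in the labels, so the p-values cover the spread of these libraries, possibly a technical one. In bulk RNA, fewer cells of a kind and less RNA per cell cannot be told apart.

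Treatment moved the 48 genes in both directions. Of them 19 were higher (39.6%) and 10 lower (20.8%) in UNC1999, and 19 did not pass the edgeR quasi-likelihood test at an adjusted p of 0.05. Over all 13075 tested genes 15.7% were higher, 19.5% lower and 35.2% called in either direction, so the share of lower members was near that of all genes and the share of higher members was above it. The changes were modest: the higher members ran from 1.22-fold to 2.12-fold, and only TPR, at the top, passed 2-fold. The lower members lay between 0.566 and 0.798 of the DMSO level. The median log2 fold change of the members was 0.15, against -0.01 for all tested genes. In 23 members (47.9%) all UNC1999 libraries were above both DMSO libraries and in 13 (27.1%) all were below, against 24.2% and 30.4% of all tested genes. Groups overlapped in 12 of the 48 members and in 5931 of the 13075 tested genes, of which 54.6% had groups apart. Without scaling factors 23 members were higher and 5 lower, so that 82.1% of the calls were higher, against 65.5% with TMM factors (62.9% against 44.7% for all tested genes). The lower calls lost in that fit were those of TNPO3 (-0.24), NUP188 (-0.22), NUP98 (-0.24), XPO6 (-0.24) and IPO9 (-0.25).

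The direction of the members followed the GC content of their transcripts. The 19 higher members had transcripts of 34.4% to 44.5% GC and the 10 lower ones of 46.5% to 54.4%, so that the ranges did not overlap. The uncalled members spread over both, from 38.6% to 58.4%. At or below the members' median GC content of 44.1%, 17 members were higher and 0 lower; above it, 2 were higher and 10 lower. In the fit with offsets, described next, those counts were 7 and 4, and 4 and 6. Across the 48 members Spearman's rho between GC content and log2 fold change was -0.66, against -0.23 across 11019 annotated genes tested (descriptions over genes of the same libraries, which are not independent replicates). A second fit therefore removed each library's smooth trend with GC content and transcript length, and its log2 values are called values with offsets below. A trend from the making of the libraries and one from the treatment cannot be told apart here, and the offsets remove either. With offsets 11 members were higher (22.9%, against 14.5% of all genes in that fit) and 10 lower (20.8%, against 18.7%), and the median was 0.04. The members called in the same direction in both fits were TPR, NUP153, NUP50, NUP160, NUP205, NUP58, IPO8, XPO1 and XPO4, which rose, and KPNA6, NUP93, IPO9, XPO5, XPO6 and XPO7, which fell. Of these, TPR, NUP160, NUP58, IPO8, XPO1 and XPO4 rose and KPNA6 and XPO5 fell also in each of 15 alternative fits, including those with 1 library left out.

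**Figure D1:**
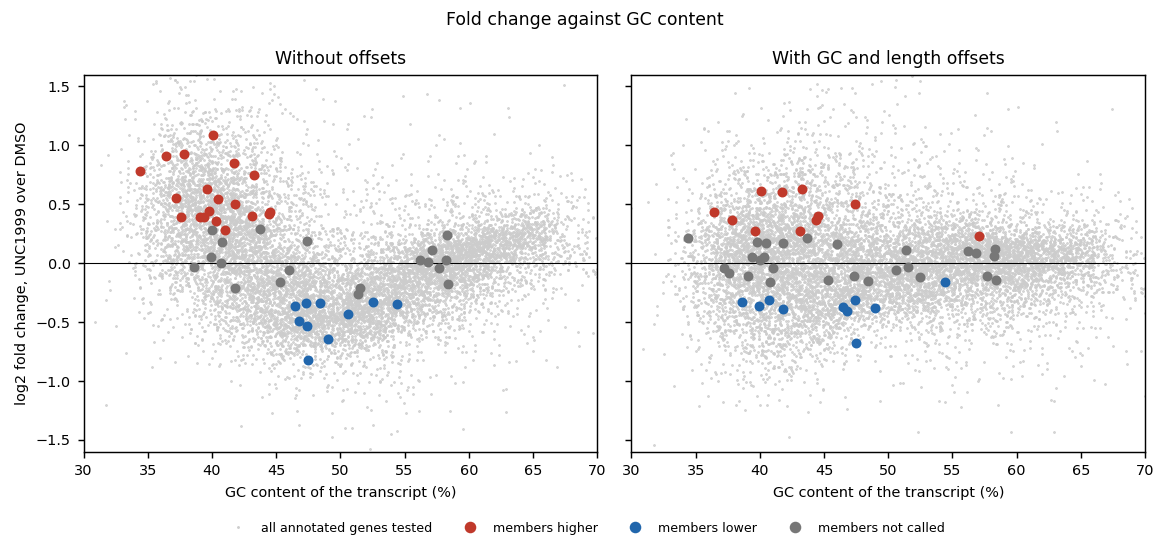
Log2 fold change of UNC1999 over DMSO (y axis, cut at 1.6 on either side) against the GC content of the transcript in percent (x axis), without offsets (left) and with GC and length offsets (right). Grey dots are annotated genes tested and large dots are the 48 members, coloured by their call in the fit shown; on the left the higher members lie at or below 44.5% GC and the lower ones at or above 46.5%.

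For 42 of the 48 members RefSeq (GRCh38.p14) gave a promoter window, from 250 bases before to 50 after the gene start. Upstream sequence is shown for the 2 highest and 2 lowest members by value with offsets among those called in both fits, where at least 150 bases lay before the gene start in both RefSeq and GENCODE 29. Capitals mark matches, on either strand, to the motifs searched.
NUP153 (chr6:17706926-17707125, minus strand): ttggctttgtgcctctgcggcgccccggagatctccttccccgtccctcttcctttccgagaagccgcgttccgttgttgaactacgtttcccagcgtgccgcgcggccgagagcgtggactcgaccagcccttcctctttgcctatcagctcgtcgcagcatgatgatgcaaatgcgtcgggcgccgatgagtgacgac
NUP205 (chr7:135557717-135557916, plus strand): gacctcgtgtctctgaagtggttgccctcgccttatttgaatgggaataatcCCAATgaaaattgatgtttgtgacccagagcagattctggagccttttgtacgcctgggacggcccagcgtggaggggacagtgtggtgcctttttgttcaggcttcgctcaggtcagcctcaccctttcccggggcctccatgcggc
KPNA6 (chr1:32107838-32108037, plus strand): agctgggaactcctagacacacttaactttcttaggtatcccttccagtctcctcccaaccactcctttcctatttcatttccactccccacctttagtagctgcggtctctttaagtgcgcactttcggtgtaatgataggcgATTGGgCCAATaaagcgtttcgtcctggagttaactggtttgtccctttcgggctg
NUP93 (chr16:56729905-56730104, plus strand): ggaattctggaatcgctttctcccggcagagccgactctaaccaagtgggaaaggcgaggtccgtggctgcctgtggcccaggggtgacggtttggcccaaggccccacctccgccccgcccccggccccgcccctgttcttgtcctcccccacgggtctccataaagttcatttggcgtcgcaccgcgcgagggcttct
KPNA6 held a pair of CCAAT boxes on opposite strands, reading away from each other, and NUP205 a single one. The stretches of NUP153 and NUP93 held none of the motifs. In the whole windows of all 42 members the ETS motif CCGGAAG stood in 31.0%, the E2F motif GCGGGAA in 21.4%, the YY1 motif GATGGCG in 16.7%, the CCAAT box CCAAT in 45.2%, the MYC E-box CACGTG in 11.9% and the TATA box TATAAA in 4.76%. Over all 35116 promoters in the table, noncoding genes included, the shares were 10.3%, 6.55%, 4.2%, 34.6%, 7.26% and 11.5% in the same order. A match is a run of letters and no evidence of binding.

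The nuclear basket organises chromatin and RNA export at the inner face of the pore. All 3 of its genes were higher in UNC1999, also with offsets. Of all genes tested, 15.7% were higher without offsets and 14.5% in the fit with them. The 3 basket transcripts, at 40.1% to 44.5% GC, lay within the GC range of the higher members. TPR, the scaffold protein of the basket filaments, had 98.0, 84.0 and 101.0 CPM in UNC1999, against 44.2 and 44.5 CPM in DMSO. No UNC1999 library came near the DMSO level. The log2 fold change was 1.09 ± 0.12 (SE), the highest of the 48 without offsets (edgeR adjusted p = 1.9e-08). With offsets TPR was at 0.61, behind NUP160 at 0.63. TPR lies on chromosome 1 from 186311652 to 186375693 (GENCODE 29, GRCh38; the authors' build was hg19), where it overlaps PRG4 on the opposite strand, and PRG4 had only 7 to 19 counts in any library. NUP153, which binds importins and anchors TPR, had 201, 216 and 214 CPM in UNC1999 and 152 and 160 CPM in DMSO (log2 fold change 0.43, with offsets 0.40). NUP50, a mobile partner of NUP153 that helps to take importin apart from its cargo, had 136, 152 and 140 CPM in UNC1999 and 107 and 109 CPM in DMSO (0.40, with offsets 0.27). The groups did not overlap for any of the 3, nor for 54.6% of all tested genes. NUP153 was not called without DMSO replicate 1 (0.39, edgeR adjusted p = 0.0791), and NUP50 was called neither without DMSO replicate 1 nor without replicate 2 (0.39 and 0.41, edgeR adjusted p = 0.0851 and 0.0612).

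**Figure D2:**
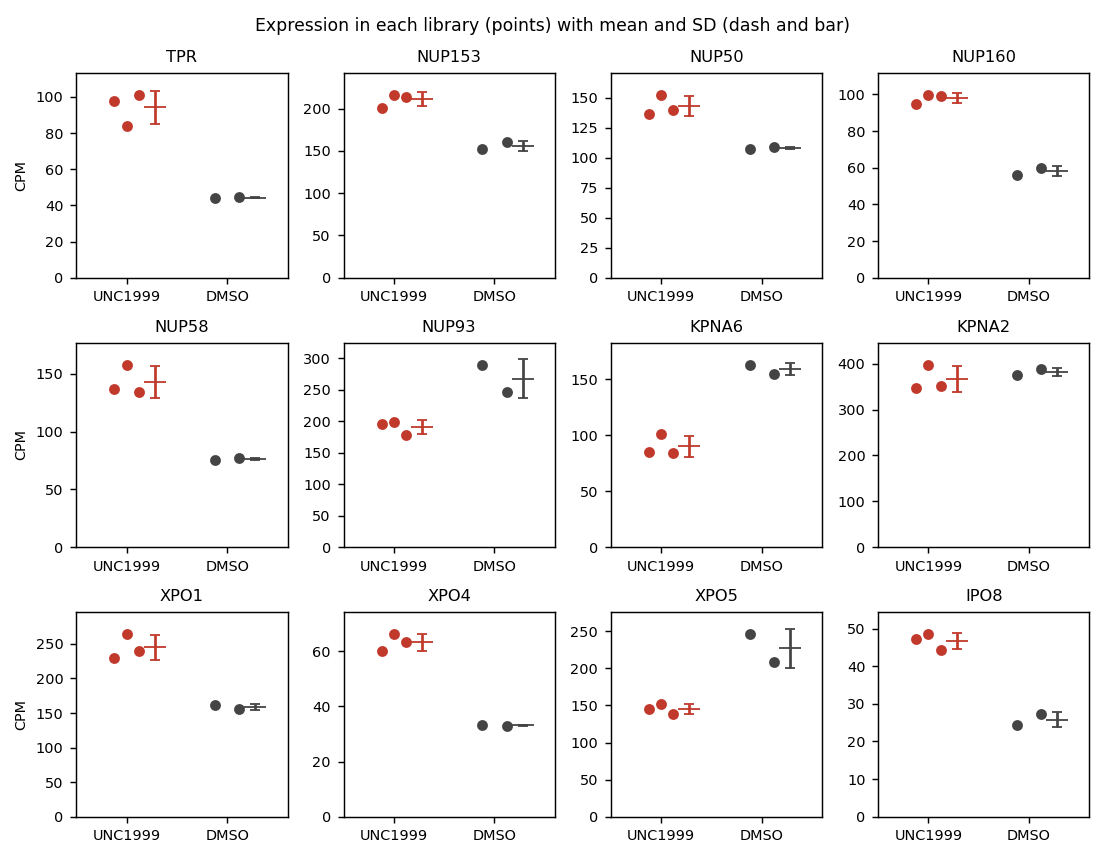
Expression in CPM (y axis, from 0) of 12 members in each library (points), UNC1999 left and DMSO right, with the mean and SD of each group (dash and bar; n = 3 and n = 2). The groups are apart in each panel but KPNA2, where UNC1999 libraries lie at 347 to 398 CPM and DMSO libraries at 376 and 388 CPM.

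The Y complex, the outer scaffold of the pore, gave 2 higher and 0 lower genes of 6. The share of higher genes was 33.3%, while 15.7% of all tested genes were higher and 19.5% lower. NUP160, which lies in the short arms of the Y, had 95, 99.6 and 99.4 CPM in UNC1999, against 56.2 and 60.0 CPM in DMSO. Its 3 treated libraries were nearly equal and well clear of DMSO (log2 fold change 0.75 ± 0.11 SE, edgeR adjusted p = 3.08e-06, with offsets 0.63). NUP107, of the stem, had 70.9, 68.0 and 70.4 CPM in UNC1999 and 41.6 and 54.5 CPM in DMSO. Here the DMSO libraries differed more from each other than the treated ones did. NUP107 (0.54) was not called with offsets (0.17) nor without DMSO replicate 1 (0.35, edgeR adjusted p = 0.118). NUP43, a beta-propeller protein of the arms, had 57.4, 74.1 and 62.7 CPM in UNC1999 and 77.8 and 72.3 CPM in DMSO, with UNC1999 replicate 2 inside the DMSO range. Its log2 fold change of -0.21 was not called, but with offsets (-0.39, edgeR adjusted p = 0.000415) it was, as it was when UNC1999 replicate 2 was dropped (-0.31, edgeR adjusted p = 0.00618). NUP37, also of the arms, had 31.6, 44.1 and 28.6 CPM in UNC1999 and 33.4 and 37.5 CPM in DMSO. It was called with offsets (-0.33, edgeR adjusted p = 0.0192) but not without them. NUP133 (0.29) and NUP85 (-0.26) were not called either, but were when UNC1999 replicate 2 was dropped (0.26 and -0.23, edgeR adjusted p = 0.0279 and 0.0233).

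Inner-ring genes split. NUP155 and NUP205 were higher, NUP93 and NUP188 lower, and NUP35 (0.28) was not called. NUP93, which holds the inner ring together and recruits the other members, had 195, 199 and 179 CPM in UNC1999, against 290 and 246 CPM in DMSO. Every treated library lay below both controls (log2 fold change -0.49 ± 0.11 SE, edgeR adjusted p = 0.000581, with offsets -0.41). NUP205, a large scaffold protein, went the other way, with 163, 181 and 168 CPM in UNC1999 and 128 and 127 CPM in DMSO (0.42, with offsets 0.37). NUP188, the structural relative of NUP205, had 177, 165 and 194 CPM in UNC1999 and 241 and 207 CPM in DMSO (-0.33), and was not called with offsets (-0.12). NUP155, which links ring and membrane, had 107, 119 and 108 CPM in UNC1999 and 82.7 and 75.0 CPM in DMSO (0.50), and was not called with offsets (0.17). Calls of this ring were lost when single libraries were left out. Leaving out a DMSO library leaves a lone control, and the value of NUP205 hardly moved then. Without DMSO replicate 1 NUP93 (-0.37, edgeR adjusted p = 0.0851), NUP205 (0.43, edgeR adjusted p = 0.0541) and NUP188 (-0.21, edgeR adjusted p = 0.369) were not called. NUP205 and NUP155 were not called without DMSO replicate 2 (0.41 and 0.43, edgeR adjusted p = 0.0599 and 0.0513), nor NUP188 without UNC1999 replicate 1 (-0.31, edgeR adjusted p = 0.0825).

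In the central channel, whose phenylalanine-glycine repeats form the permeability barrier, NUP58 and NUP54 were higher and NUP98 was lower. NUP58 had 137, 158 and 134 CPM in UNC1999, against 75.5 and 76.9 CPM in DMSO. All treated libraries lay far above both controls (log2 fold change 0.91 ± 0.12 SE, edgeR adjusted p = 2.15e-07, with offsets 0.43). NUP54, which forms a complex with NUP58 and NUP62, had 37.3, 36.5 and 41.1 CPM in UNC1999 and 28.1 and 28.4 CPM in DMSO (0.44, with offsets 0.18, not called). The remaining partner of that complex, NUP62, was not called (-0.18, edgeR adjusted p = 0.201), although its treated libraries lay below both controls. NUP98, whose transcript also encodes NUP96 of the Y complex, had 169, 184 and 167 CPM in UNC1999 and 232 and 207 CPM in DMSO (-0.34, edgeR adjusted p = 0.0119, with offsets -0.15, not called). NUP54 was not called without either DMSO library (0.43 without replicate 1 and 0.44 without replicate 2, edgeR adjusted p = 0.0761 and 0.0599). NUP98 lost its call with DMSO replicate 1 dropped (-0.26), and with replicate 1 or 3 of UNC1999 dropped (-0.32 each), at edgeR adjusted p of 0.244, 0.0751 and 0.0597.

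Neither member of the cytoplasmic face was called without offsets, where 35.2% of all tested genes were called in either direction. Genes of this face outside the symbol rule, such as RANBP2, are described below. NUP214, the docking site of the export machinery, had 149, 133 and 147 CPM in UNC1999 and 180 and 150 CPM in DMSO (log2 fold change -0.21, edgeR adjusted p = 0.144). NUP88, its partner, had 44.8, 49.1 and 42.6 CPM in UNC1999 and 42.0 and 37.9 CPM in DMSO, a difference of 0.19 that passed with offsets (0.50, edgeR adjusted p = 5.33e-05). NUP88 overlaps RABEP1 on the opposite strand over 24850 bases in GENCODE 29, and RABEP1 itself was higher (0.36, edgeR adjusted p = 0.0245; 0.16 with offsets, not called). No source used here gives the strand setting of the counting, so reads of such overlapping pairs cannot be told apart. In all, 28 of the 48 members overlap a gene on the opposite strand, 8 of them a protein-coding one.

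The membrane ring gave 0 calls among 4 genes by edgeR without offsets, where 35.2% of all tested genes were called in either direction. NUP210, the transmembrane nucleoporin with the most counts here, had 855, 693 and 860 CPM in UNC1999 and 755 and 609 CPM in DMSO. The spread within each group was as wide as the gap between them (0.24, edgeR adjusted p = 0.114), and NUP210 was called without UNC1999 replicate 2 (0.34, edgeR adjusted p = 0.000669). NDC1, which is embedded in the membrane and needed for pore assembly, had 62.7, 70.4 and 60.3 CPM in UNC1999 and 66.6 and 62.7 CPM in DMSO, with an edgeR adjusted p of 0.989, but -0.31 with offsets (edgeR adjusted p = 0.00311). AAAS, the soluble partner of NDC1, had 73, 57.7 and 76.0 CPM in UNC1999 and 64.2 and 63.1 CPM in DMSO. Its log2 fold change of 0.11 passed with offsets (0.23, edgeR adjusted p = 0.0362), and also when UNC1999 replicate 2 was dropped (0.24, edgeR adjusted p = 0.0282). POM121 (-0.04, edgeR adjusted p = 0.838) has the near-identical copy POM121C, so its counts are uncertain.

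Importin alpha proteins read the classical nuclear localisation signal of a cargo, and cells hold several related ones. KPNA6 fell more than any other member. It had 84.6, 101.0 and 84.4 CPM in UNC1999, against 163 and 155 CPM in DMSO, and the groups were far apart (log2 fold change -0.82 ± 0.11 SE, edgeR adjusted p = 5.4e-07, with offsets -0.68). KPNA6 lies on chromosome 1 from 32108038 to 32176568 (GENCODE 29, GRCh38), next to the promoter stretch shown above. KPNA2, the most abundant of these genes per length and known for its expression in dividing cells, had 347, 398 and 352 CPM in UNC1999 and 376 and 388 CPM in DMSO, with overlapping groups (-0.06, edgeR adjusted p = 0.690).

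Of the other importin alpha genes, 3 were higher without offsets and none with them. The shares of higher genes among all tested were 15.7% without offsets and 14.5% with them. KPNA4 had 89.3, 93.4 and 91.1 CPM in UNC1999 and 67.2 and 71.8 CPM in DMSO (0.39, with offsets -0.11). KPNA3 had 107, 107 and 102 CPM in UNC1999 and 83.3 and 81.5 CPM in DMSO (0.36, with offsets 0.05). KPNA5 was scarce, with 52, 48 and 65 counts in UNC1999 and 28 and 31 counts in DMSO (0.78 ± 0.24 SE, with offsets 0.21), and it was the member nearest to the limit of 10 counts. KPNA1, a near relative of KPNA5 and KPNA6, had 73.2, 76.2 and 69.1 CPM in UNC1999 and 70.6 and 69.6 CPM in DMSO. It was not called (0.05), but was lower with offsets (-0.36, edgeR adjusted p = 0.000438). None of the higher calls held without DMSO replicate 1, where KPNA3 had 0.37, KPNA4 0.34 and KPNA5 0.73 (edgeR adjusted p = 0.099, 0.128 and 0.0909). KPNA3 (0.34) and KPNA5 (0.82) were not called without DMSO replicate 2 either (edgeR adjusted p = 0.122 and 0.0599), nor KPNA5 without UNC1999 replicate 3 (0.63, edgeR adjusted p = 0.057).

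The make-up of the importin alpha pool shifted accordingly. Per length of transcript, KPNA6 made up 5.79%, 6.17% and 5.77% of the pool in UNC1999, against 10.4% and 9.75% in DMSO. KPNA3 made up 12%, 10.8% and 11.5% in UNC1999 and 8.78% and 8.44% in DMSO, so the order of these genes was exchanged. KPNA2 held 71.5%, 73.1% and 72.2% in UNC1999 and 72.2% and 73.2% in DMSO, and its groups overlapped. These shares come from CPM without offsets, and each share depends on the others.

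**Figure D3:**
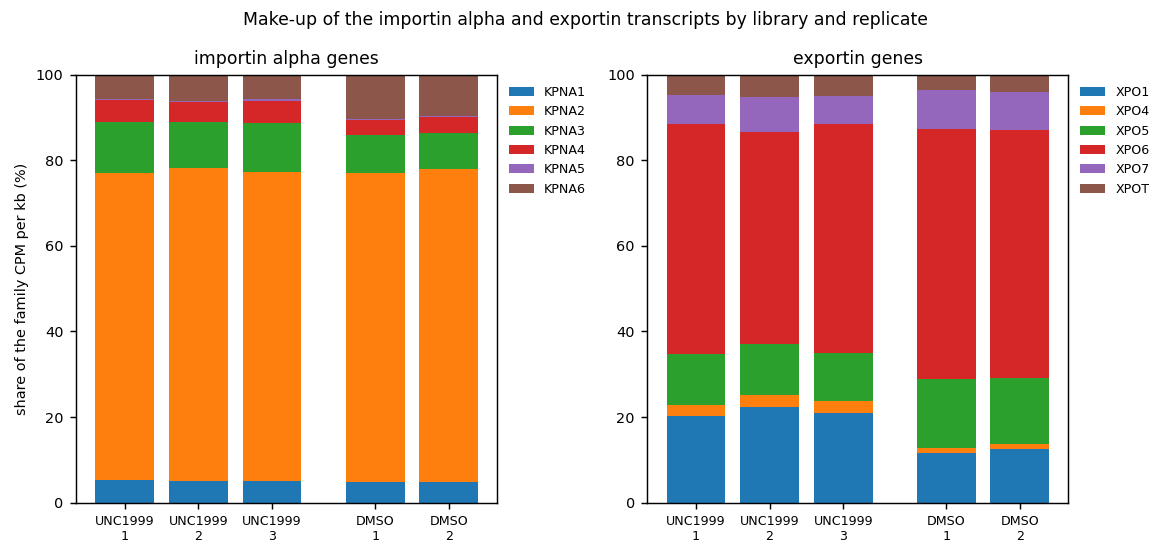
Share of each gene in the summed CPM per kilobase (y axis, percent) of the importin alpha members (left) and the XPO members (right). Each library has 1 bar, UNC1999 left and DMSO right. KPNA6 is at 5.77% to 6.17% in UNC1999 and 9.75% to 10.4% in DMSO, and XPO1 at 20.3% to 22.4% in UNC1999 and 11.6% to 12.5% in DMSO.

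Among the 10 importin beta family genes, which carry cargo directly or through importin alpha, 5 were higher and 2 lower. IPO8, a carrier that has been linked to SMAD and Argonaute proteins, had 47.1, 48.5 and 44.3 CPM in UNC1999, against 24.3 and 27.2 CPM in DMSO. It stood out from the family (log2 fold change 0.85 ± 0.13 SE, edgeR adjusted p = 2.38e-06) and was the member of the family called higher with offsets (0.60). TNPO1, the carrier of RNA-binding proteins with a PY signal, had 120, 129 and 131 CPM in UNC1999 and 82.4 and 90.2 CPM in DMSO (0.55, edgeR adjusted p = 0.000181). With offsets that difference was -0.04 and not called. IPO7, IPO5 and IPO11, carriers of ribosomal proteins, histones and a ubiquitin-conjugating enzyme among other cargo, behaved alike: higher without offsets and near 0 with them. IPO7 had 108, 120 and 115 CPM in UNC1999 and 88.3 and 86.9 CPM in DMSO (0.39, with offsets -0.08). IPO5 had 242, 292 and 269 CPM in UNC1999 and 225 and 216 CPM in DMSO (0.28, with offsets -0.04). IPO11 had 20.3, 22.3 and 20.8 CPM in UNC1999 and 15.4 and 17.0 CPM in DMSO (0.39, with offsets 0.05), and it overlaps KIF2A on the same strand in GENCODE 29.

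IPO9, an importer of histones, was lower with 140, 151 and 138 CPM in UNC1999, against 201 and 166 CPM in DMSO. Its value hardly moved with offsets (-0.36, with offsets -0.37). TNPO3, which imports splicing factors of the SR family, had 105, 120 and 102 CPM in UNC1999 and 142 and 135 CPM in DMSO (-0.34, with offsets -0.11, not called). KPNB1, importin beta itself, had 527, 652 and 573 CPM in UNC1999 and 643 and 661 CPM in DMSO. Only UNC1999 replicate 2 reached the DMSO range, and KPNB1 (-0.16, edgeR adjusted p = 0.270) was called lower without it (-0.23, edgeR adjusted p = 0.00611). IPO13 and TNPO2 (each 0.03) were not called. Without DMSO replicate 1 the calls of IPO9 (-0.22), TNPO3 (-0.31), IPO5 (0.31), IPO7 (0.39) and IPO11 (0.31) were lost, with edgeR adjusted p of 0.347, 0.168, 0.187, 0.078 and 0.255. TNPO3 (-0.38), IPO5 (0.25), IPO7 (0.37) and IPO11 (0.46) lost theirs without DMSO replicate 2 as well (edgeR adjusted p = 0.0695, 0.276, 0.0886 and 0.0799). Without UNC1999 replicate 1 IPO9 (-0.34) and TNPO3 (-0.31) were not called (edgeR adjusted p = 0.0548 and 0.0819), and without UNC1999 replicate 3 TNPO3 (-0.30), IPO5 (0.28) and IPO11 (0.40) were not (edgeR adjusted p = 0.0835, 0.102 and 0.0525).

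Exportins split: 2 rose, 3 fell and XPOT (0.18), the tRNA exporter, was not called. In all 6 genes the groups were apart, as they were in 54.6% of all tested genes. XPO1, the general exporter of proteins with a leucine-rich signal, had 230, 264 and 240 CPM in UNC1999, against 162 and 156 CPM in DMSO (log2 fold change 0.63 ± 0.11 SE, edgeR adjusted p = 3.31e-05, with offsets 0.27). XPO4, known to export the translation factor eIF5A, had 59.9, 66.1 and 63.3 CPM in UNC1999 and 33.3 and 32.9 CPM in DMSO. The treated libraries lay far above the controls (0.93 ± 0.12 SE, edgeR adjusted p = 2.81e-07, with offsets 0.37). XPO5, the exporter of microRNA precursors, had 145, 152 and 139 CPM in UNC1999 and 246 and 209 CPM in DMSO. It fell by 0.64 ± 0.11 (SE) on the log2 scale (edgeR adjusted p = 1.68e-05, with offsets -0.38). GENCODE 29 has XPO5 overlap POLR1C on the opposite strand over 40090 bases, and POLR1C was also lower (-0.34, edgeR adjusted p = 0.013; -0.06 with offsets, not called), with 99.1, 95.6 and 101.0 CPM in UNC1999 and 128 and 121 CPM in DMSO.

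XPO7, a broad-specificity exportin known from red cell maturation in mice, had 74, 94.5 and 73 CPM in UNC1999 and 126 and 108 CPM in DMSO (-0.53 ± 0.12 SE, edgeR adjusted p = 0.000515, with offsets -0.31). XPO6, the exporter of actin, had 549, 528 and 551 CPM in UNC1999 and 732 and 648 CPM in DMSO (-0.35, edgeR adjusted p = 0.00945). Its call with offsets was marginal (-0.16, edgeR adjusted p = 0.0499). XPO7 and XPO6 were not called without DMSO replicate 1 (-0.42 and -0.26, edgeR adjusted p = 0.0577 and 0.24), nor XPO6 without UNC1999 replicate 1 (-0.35, edgeR adjusted p = 0.055). Per length and without offsets, XPO6 made up 53.9%, 49.7% and 53.6% of the exportin pool in UNC1999 and 58.4% and 57.9% in DMSO. The pool holds only the members with an XPO symbol. CSE1L, another exportin gene, is outside it, at 35.7 CPM per kb in UNC1999 and 32.1 CPM per kb in DMSO. XPO1 made up 20.3%, 22.4% and 21.0% in UNC1999 and 11.6% and 12.5% in DMSO, and XPO5 11.7%, 11.8% and 11.2% in UNC1999 and 16.2% and 15.4% in DMSO. XPO1 thus stood behind XPO5 in the control pool and ahead of it in the treated pool.

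Of the RAN cycle genes, RANBP1, which helps RANGAP1 to release RAN-GTP from carriers in the cytoplasm, had 273, 293 and 264 CPM in UNC1999, against 361 and 386 CPM in DMSO. All treated libraries were lower (log2 fold change -0.43 ± 0.11 SE, edgeR adjusted p = 0.00152). With offsets the value was -0.06 and not called, and it was not called without DMSO replicate 2 (-0.38, edgeR adjusted p = 0.0614). RANBP1 overlaps TRMT2A on the opposite strand over 1455 bases in GENCODE 29, and TRMT2A was not called (0.21, edgeR adjusted p = 0.165). RANGAP1, the GTPase-activating protein, was not called (0.01, edgeR adjusted p = 0.942).

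**Figure D4:**
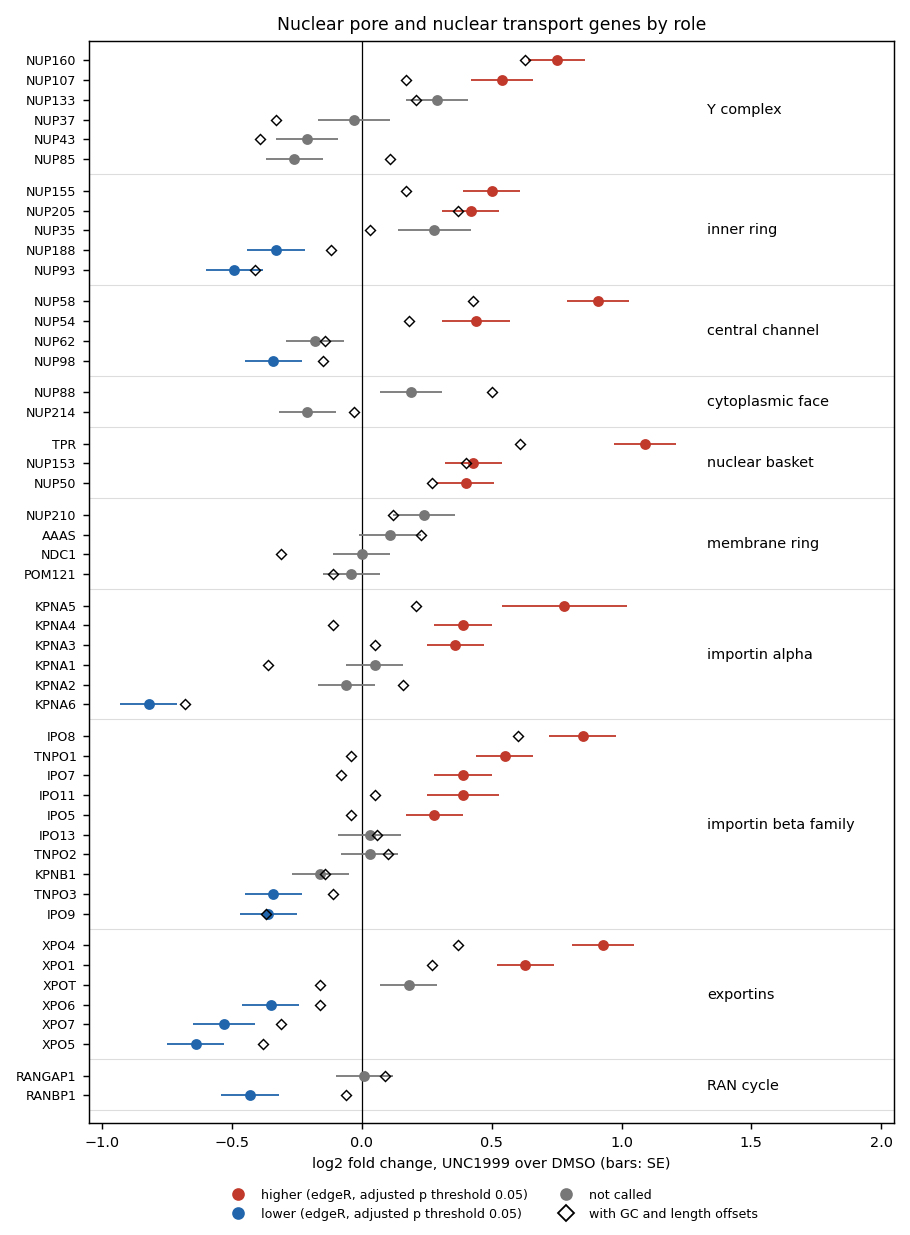
Log2 fold change of UNC1999 over DMSO (x axis) of the 48 members by role (rows), as points with SE bars coloured by the edgeR call at an adjusted p of 0.05, and as open diamonds with GC and length offsets. Without offsets TPR is highest at 1.09 and KPNA6 lowest at -0.82. The nuclear basket is the role whose genes all rose in both fits.

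Levels between genes were compared per kilobase of the longest coding transcript. RANBP1 was highest, at 199 CPM per kb in UNC1999 and 269 CPM per kb in DMSO, before KPNA2 at 149 CPM per kb in UNC1999 and 156 CPM per kb in DMSO. XPO6 (123 in UNC1999, 156 in DMSO), NUP210 (112 and 94.8) and KPNB1 (95.1 and 106, all in CPM per kb) came next. TPR was among the low ones, with 9.70 CPM per kb in UNC1999 and 4.57 CPM per kb in DMSO, and KPNA5 was lowest, at 0.545 CPM per kb in UNC1999 and 0.317 CPM per kb in DMSO.

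Of 8 matching rows below the count limit, NUP210L was closest to it, with 6, 9 and 8 counts in UNC1999 and 6 and 6 counts in DMSO. IPO4, an importer of histones, had 2 counts in each UNC1999 library and 4 and 3 counts in DMSO. In GENCODE 29 the protein-coding gene AL136295.4 overlaps IPO4 on the same strand over 8570 bases, and how shared reads were assigned is not stated. NUP62CL and the pseudogenes NUP210P2 and NUP210P3 were listed at 0 in each library. As a count, 0 would allow up to 3 counts per library, but genes in general use are at 0 in this table too, so these may be no measurements. KPNA7, NUP58P1 and NUP210P1 had between 0 and 6 counts.

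Other genes of nuclear transport moved both ways as well. Of 38 tested, 10 were higher (26.3%) and 12 lower (31.6%), against 15.7% and 19.5% of all tested genes. Their median log2 fold change was -0.18. With offsets 7 were higher (18.4%) and 10 lower (26.3%), against 14.5% and 18.7% of all genes in that fit. The higher ones with the smallest p were THOC2, AHCTF1 and RANBP2. THOC2, of the THO complex that prepares mRNA for export, had 85.4, 83.9 and 93.2 CPM in UNC1999 and 43.7 and 50.3 CPM in DMSO (0.90, with offsets 0.47). AHCTF1, which seeds new pores on chromatin, had 46.6, 48.6 and 59.6 CPM in UNC1999 and 27.3 and 25 CPM in DMSO (0.98, with offsets 0.54). RANBP2, the large protein of the cytoplasmic filaments, had 93.2, 84.3 and 94.9 CPM in UNC1999 and 49.0 and 54.2 CPM in DMSO (0.81, with offsets 0.26), and it has close copies in the RGPD genes.

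Lower were GLE1 and its helicase partners DDX19A and DDX19B, which strip export factors from mRNA at the cytoplasmic face. GLE1 had 93.1, 99.1 and 91.7 CPM in UNC1999 and 160 and 155 CPM in DMSO (-0.74, with offsets -0.38). DDX19B had 27.0, 32.9 and 29 CPM in UNC1999 and 49.3 and 43.3 CPM in DMSO (-0.64, with offsets -0.28). DDX19A had 11.7, 14.1 and 15.2 CPM in UNC1999 and 20.0 and 25.7 CPM in DMSO (-0.74, with offsets -0.38). The helicase genes are near-identical, so their reads may be shared. None of these 6 genes lost its call when any 1 library was left out. RANBP2 and DDX19B were not called in the fit with offsets and a replicate block. RAN itself (-0.30, edgeR adjusted p = 0.0274) and its exchange factor RCC1 (-0.47, edgeR adjusted p = 0.000616), named after their values were seen, were lower. With offsets RAN was called (-0.33) and RCC1 was not (-0.10). RAN lost its call when either DMSO library was dropped (-0.31 without replicate 1 and -0.29 without replicate 2), and when UNC1999 replicate 1 (-0.27) or 3 (-0.25) was. DDX39B, an export helicase gene, was listed at 0 in every library.

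Among 15 nuclear envelope genes, 3 were higher (20.0%) and 3 lower (20.0%), shares near the 15.7% and 19.5% of all tested genes. SYNE2, which ties the nucleus to the cytoskeleton, had 53.0, 43.6 and 44.8 CPM in UNC1999 and 18.1 and 20.5 CPM in DMSO (1.29, with offsets 0.85). TOR1AIP1, an inner membrane protein that activates torsin, had 50.5, 56.6 and 53.9 CPM in UNC1999 and 25.6 and 30.3 CPM in DMSO (0.94, with offsets 0.51). SUN1, the inner-membrane partner of the SYNE proteins, had 46.3, 47.6 and 46.5 CPM in UNC1999 and 77.2 and 71.1 CPM in DMSO (-0.66, with offsets -0.33). TOR1A, torsin itself, had 87.7, 90.0 and 79.8 CPM in UNC1999 and 121 and 125 CPM in DMSO (-0.52, with offsets -0.17, not called). The gene for MYC, a transcription factor of cell growth, fell by 1.03 on the log2 scale (edgeR adjusted p = 7.87e-09, with offsets -0.76).

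UNC1999 replicate 2 was the highest of the treated libraries in 32 of the 48 members (66.7%), against 41.0% of all tested genes. It was the lowest in 15 (31.2%, against 38.5%). Counts of this library differed from UNC1999 replicates 1 and 3 with a chi-square per degree of freedom of 7.47 and 8.77, against 1.81 between replicates 1 and 3 and 3.14 between the DMSO libraries. Without it 22 members were higher and 13 lower, and all 29 calls made with it were kept.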

How the data were processed

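The table as deposited by the authors holds whole-number counts of reads, 1 row for each gene symbol, for 5 libraries. The submitters' processing notes name hg19, HTSeq 0.13.5, STAR 2.7.9, edgeR 3.34.0 and fastp, with no roles. Annotation and strand setting are not stated. The 13075 genes that passed filterByExpr entered an edgeR quasi-likelihood F-test (glmQLFit, version 4.0.16 under R 4.3.3, TMM factors) with Benjamini-Hochberg adjustment and a threshold of 0.05. The SE is the size of the log2 fold change over the root of F. GC content and length came from the longest coding transcript in GENCODE 29 (GRCh38), for 11019 genes (84.3%) and all 48 members. Offsets were splines (6 and 4 degrees of freedom) fitted, library by library, to differences from the all-library mean. The edgeR fit, and the offsets on a GC trend, were tested on simulated counts. The edgeR fit recovered 86.7% of 2-fold and 70.4% of 1.5-fold changes, and 5.52% of its calls were false. The other fits were not simulated. DESeq2 1.42.0, limma 3.58.1, other scalings, filters and thresholds, and leaving out each library were alternatives. Whether replicate numbers pair libraries is not in the labels. Proteins were not analysed here.

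The members, gene lists and offsets were chosen with earlier results of these data known. Given per library were, in each role, the 3 called members with the smallest p (the third of the other direction where all went 1 way; with none called, the most abundant), the 5 highest and 5 lowest, KPNA2, KPNB1, XPO1, RANBP1, TPR and NUP98, members whose call changed with offsets, and 3 transport and 2 envelope genes per direction. Other genes so given were chosen after their values were seen. Counting limits cover counting error only.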

Additional observations from a re-analysis of the deposited data

How the results depend on the processing

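Counts of calls moved with offsets, scaling factors, the threshold and single libraries, and the cause was not tested. With offsets 11 members were called higher and the median log2 fold change was 0.04. With offsets and a replicate block 10 were higher (median 0.01), as were 5 other transport genes and 1228 of all tested genes. Without scaling factors 5 members were lower and 5 envelope genes higher, and the median was 0.25, while the median of all tested genes moved to 0.09. At a threshold of 0.01, 6 members were lower. With 1 library left out, 8 to 22 members were higher and 3 to 13 lower, with a median of 0.09 to 0.15. The lowest counts came without DMSO replicate 1, which leaves a lone DMSO library assumed to vary like the treated ones, and the highest without UNC1999 replicate 2. Higher calls then ranged over 5 to 11 other transport genes, 3 to 4 envelope genes and 1158 to 2862 of all tested genes, and lower calls over 8 to 17, 3 to 4 and 1367 to 3030. DESeq2 called 18 members higher and 10 lower, and limma-voom 19 and 10. Of the 29 calls, 15 were kept with offsets, 24 without factors and 11 without DMSO replicate 1.

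Same-numbered DMSO and UNC1999 libraries deviated together with r of 0.0658 and 0.0381. With only 2 DMSO libraries, whose deviations mirror each other, these values cannot show whether replicate numbers pair libraries. The replicate block gave 18 higher and 9 lower members (median 0.14), 9 and 11 other transport genes, and 1886 and 2136 of all tested genes.

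Some members changed sign. With offsets, and with offsets and a replicate block, log2 fold changes were -0.04 and -0.07 for IPO5, -0.04 and -0.06 for TNPO1, -0.36 and -0.34 for KPNA1, 0.11 and 0.10 for NUP85, 0.16 and 0.15 for KPNA2, -0.16 and -0.18 for XPOT, -0.11 and -0.12 for KPNA4, and -0.08 and -0.10 for IPO7. Without factors they were 0.10 for NDC1, 0.08 for NUP37, 0.04 for KPNA2 and 0.07 for POM121. DESeq2 size factors gave 0.02 for NDC1 and 0.000606 for NUP37, and its Wald test 0.02 and 0.000683. The replicate block gave 0.04 for NDC1, 0.09 for NUP37 and -0.05 for RANGAP1 and IPO13. With 1 library left out NDC1 ranged over -0.06 to 0.04, NUP37 over -0.23 to 0.10, RANGAP1 over -0.05 to 0.10, TNPO2 over -0.02 to 0.09, IPO13 over -0.04 to 0.12 and POM121 over -0.15 to 0.08.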
